A study of Homo sapiens with 12 samples.

Results

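The regions described here are stretches of chromatin that appeared open in U2OS cells with a full-length SOX2 construct and in cells with a SOX2-FOXA2 CTD fusion, and in no other cells of the series. They were chosen by the presence of entries in the peak lists themselves. Entries of all 9 lists on chromosomes 1 to 22 and X, at any irreproducible discovery rate (IDR), were merged into 399183 regions wherever they shared 1 bp. A region was a member if it had an entry in the SOX2 list and in the fusion list and none in the other 7 lists. This left 40336 members, 10.1% of all merged regions. The share follows from the rule, and nothing is read from it.

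ATAC-seq, an assay that maps open chromatin by letting a transposase cut accessible DNA, was performed on 12 samples of U2OS, a human osteosarcoma line, with 50000 cells collected per sample. There were 6 groups of 2 samples: a wild type, full-length FOXA2 and FOXA2 lacking its CTD (the FOXA2 set, with 6 lists), and a second wild type, full-length SOX2 and the SOX2-FOXA2 CTD fusion (the SOX2 set, with 3 lists). The constructs, of which those of FOXA2 are described as Flag-tagged, were switched on with a Tet-on system by doxycycline at 500 ng/ml for 4 days. The treatment field of both wild types is empty, although the shared protocol mentions doxycycline, and the label of the second wild type names the SOX2 cell line without saying whether it was parental or uninduced. Regions open in those cells are not members, whatever opened them.

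SOX2 is a transcription factor of stem cells and neural progenitors that binds DNA through its HMG box, which bends the double helix from the minor groove. It is counted among the pioneer factors, which can reach their sites in closed, nucleosome-bound chromatin. FOXA2, a forkhead pioneer factor of endoderm and liver, binds through a different domain. Its C-terminal domain, the CTD, lies outside that DNA-binding domain, so the fusion joins the CTD of FOXA2 to full-length SOX2.

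The strongest members that lie at an annotated start show what such DNA looks like. Sequences were taken from RefSeq promoter windows on GRCh38.p14, each running from 250 bases before a start to 50 after it. The SOX motif was spelled CATTGT or CTTTGT and searched on both strands. Each stretch reaches up to 100 bases to either side of the SOX2 summit, within the 250 bases before the start, and is written in the direction of the gene. Capitals mark the SOX motif, which reads ACAATG or ACAAAG where it lies on the opposite strand. The first 8 stretches are the strongest with a motif, and the last 2, IGSF11-AS1 and LOC105370954, are the strongest without one. Of 38 members that could be shown in this way, 24 (63.2%) had a motif in the stretch.

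SOX1-OT: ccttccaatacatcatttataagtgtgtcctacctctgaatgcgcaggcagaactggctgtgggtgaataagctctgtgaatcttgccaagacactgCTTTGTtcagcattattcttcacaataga

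LGSN: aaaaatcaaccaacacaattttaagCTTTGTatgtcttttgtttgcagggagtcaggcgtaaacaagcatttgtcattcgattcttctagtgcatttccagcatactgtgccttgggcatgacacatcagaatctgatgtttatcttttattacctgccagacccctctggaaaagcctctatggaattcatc

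CTNNA3-AS1: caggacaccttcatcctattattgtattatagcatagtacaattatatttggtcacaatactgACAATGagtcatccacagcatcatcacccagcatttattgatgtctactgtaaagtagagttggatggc

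SLAIN1: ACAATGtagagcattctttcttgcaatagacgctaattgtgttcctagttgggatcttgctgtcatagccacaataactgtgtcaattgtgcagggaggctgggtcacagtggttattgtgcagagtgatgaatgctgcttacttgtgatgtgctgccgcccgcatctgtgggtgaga

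LINC01277: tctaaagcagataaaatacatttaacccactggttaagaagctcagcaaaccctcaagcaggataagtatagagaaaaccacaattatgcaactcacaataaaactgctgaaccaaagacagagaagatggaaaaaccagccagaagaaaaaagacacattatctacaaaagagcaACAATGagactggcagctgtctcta

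CNKSR3: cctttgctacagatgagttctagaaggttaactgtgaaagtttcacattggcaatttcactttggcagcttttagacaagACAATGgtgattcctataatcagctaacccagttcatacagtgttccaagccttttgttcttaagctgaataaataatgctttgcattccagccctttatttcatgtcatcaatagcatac

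USP54: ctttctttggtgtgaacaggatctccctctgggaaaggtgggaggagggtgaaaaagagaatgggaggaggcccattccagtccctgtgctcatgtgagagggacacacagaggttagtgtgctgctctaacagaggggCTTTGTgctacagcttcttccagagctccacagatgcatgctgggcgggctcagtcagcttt

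ERMN: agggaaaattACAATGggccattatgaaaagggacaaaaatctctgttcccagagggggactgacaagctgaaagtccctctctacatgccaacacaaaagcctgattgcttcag

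IGSF11-AS1: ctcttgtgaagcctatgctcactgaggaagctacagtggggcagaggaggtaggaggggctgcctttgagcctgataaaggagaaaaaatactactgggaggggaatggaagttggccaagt

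LOC105370954: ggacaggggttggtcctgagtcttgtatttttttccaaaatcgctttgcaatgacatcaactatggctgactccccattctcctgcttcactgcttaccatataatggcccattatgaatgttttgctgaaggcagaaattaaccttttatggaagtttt

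The SOX1-OT stretch, chr13:111972060-111972185 on the plus strand, precedes a long noncoding RNA that overlaps the neural gene SOX1. Its member had a −log10 p of 36.2 and 38.9 in the SOX2 inputs and 33.7 and 32.6 in the fusion inputs. The inputs of a list are the pair of peak sets that the IDR procedure compared, taken here to be both samples of the group, and −log10 p is the peak caller's measure of how far a peak stands above background. All 4 values were high, and those of SOX2 lay above those of the fusion. LGSN encodes lengsin, a protein of the lens, and its stretch is chr6:63320041-63320233 on the minus strand. The LGSN member had 28.9 and 38.8 with SOX2 and 27.2 and 30.4 with the fusion, so the constructs overlapped.

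CTNNA3-AS1 is an antisense transcript of the alpha-T-catenin gene, and its stretch is chr10:66079108-66079239 on the plus strand. Its member had 29.4 and 24.6 with SOX2 and 19.4 and 19.5 with the fusion, so that both fusion inputs were lower. SLAIN1, a microtubule-binding protein, has its stretch at chr13:77740969-77741146 on the plus strand, with 24.3 and 27.5 with SOX2 and 22.8 and 19.96 with the fusion. The long noncoding LINC01277, chr6:143037608-143037808 on the minus strand, had 21.2 and 23.6 with SOX2 and 21.4 and 17.998 with the fusion. The 2 constructs overlapped at LINC01277 and did not at SLAIN1.

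CNKSR3 encodes a signalling scaffold, and its stretch is chr6:154434091-154434291 on the minus strand. Its member had 18.2 and 18.2 with SOX2 and 20.3 and 21.3 with the fusion, one of the cases where the fusion was higher in both inputs. USP54, of the ubiquitin protease family, went the other way. At its stretch, chr10:73553365-73553565 on the minus strand, the values were 26.9 and 30.5 with SOX2 and 13.0 and 16.1 with the fusion. ERMN encodes ermin, a cytoskeletal protein of oligodendrocytes, the myelin-forming cells. Its stretch is chr2:157325960-157326074 on the minus strand, with 17.6 and 17.1 with SOX2 and 20.1 and 18.1 with the fusion, again higher with the fusion. The centre of the ERMN motif lay 1.5 bp from the SOX2 summit, and the other 7 motifs lay between 17.5 bp (CNKSR3) and 78.5 bp (LINC01277) from theirs.

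The IGSF11-AS1 member, shown by chr3:118942826-118942947 on the plus strand, had 22.98 and 21.6 with SOX2 and 23.1 and 28.5 with the fusion. The window of IGSF11-AS1 did hold 2 SOX motifs outside the stretch shown. The LOC105370954 member, shown by chr15:86932630-86932789 on the plus strand, had 18.9 and 16.8 with SOX2 and 15.4 and 10.8 with the fusion. A match is a description of the letters and not of binding.

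Members overlapped 335 of 34789 promoter windows (0.963%), through 304 regions, and 52.5% of these windows held a SOX motif (176 of 335, Wilson 95% interval 47.2 to 57.8). The table has no window on chromosome 8 and is not complete. Over all promoter windows of the table the share was 24.5%, and over the 15148 windows without an entry in any list it was 32.3% (31.6 to 33.1). In windows of members that passed an IDR of 0.05 in both lists it was 64.1% (59 of 92, 53.9 to 73.2). All intervals for shares cover counting error only, and neighbouring windows can share bases, so windows are not replicates.

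The regions most like the members are those with an entry in only 1 of the 9 lists, either SOX2 (SOX2-only, 14524 regions) or the fusion (fusion-only, 37561 regions). SOX2-only windows held a SOX motif in 28.6% of 210 cases, 24.0 points below the members (Newcombe 95% interval of the difference 15.6 to 31.7). With GC under 50% this difference was 16.1 points (2.77 to 28.8). The median GC content was 56.7% in SOX2-only windows and 43.3% in those of members. SOX2-only regions were also weaker: 2.91% passed an IDR of 0.05 in the SOX2 list, against 39.4% of members. Fusion-only windows held a SOX motif in 44.3% of 201 cases. This was 8.26 points below the members, with an interval from −0.48 to 16.8 that includes 0. For members passing in both lists the difference from fusion-only windows was 19.9 points (7.54 to 31.1), but these fusion-only regions were not filtered by IDR, and 10.5% of all fusion-only regions passed it. With GC under 50% the same difference was 12.3 points, with an interval from −1.42 to 25.1 that includes 0. Regions present in all 3 lists of the SOX2 set, called the baseline here, had a motif in 16.01% of 16868 windows. Constitutive regions, present in all 9 lists, had it in 14.6% of 6864 windows, 37.9 points below the members (32.5 to 43.2). FOXA2-opened regions, which had an entry in all 4 lists with a FOXA2 construct and in no other, overlapped 22 windows. Of these 13 held a SOX motif (59.1%, 38.7 to 76.7), and the members minus FOXA2-opened difference was −6.55 points, with an interval from −25 to 14.5 that includes 0. The motif share of members was thus not shown to differ from that of regions opened without SOX2.

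Base composition moved with these shares. The median GC content was 43.3% in windows of members and 58.7% in all windows. Among windows with GC under 50%, the SOX motif was in 60.2% of those of members (147 of 244), 52.7% of fusion-only, 44.1% of SOX2-only and 35.9% of baseline windows. In windows with no entry in any list and GC under 50% the share was 40.6%, 19.6 points below the members (13.3 to 25.7). The 22 FOXA2-opened windows all had GC under 50%. With a GC of 50% or more, the shares were 31.9% for members (29 of 91), 28.6% for fusion-only, 21.1% for SOX2-only, 23.3% for no-entry and 14.1% for baseline windows. In this class the members' difference from the baseline was 17.7 points (9.05 to 27.9). Their differences from no-entry windows (8.59 points, −0.14 to 18.8) and SOX2-only windows (10.7 points, −0.68 to 22.5) had intervals that include 0.

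**Figure D1:**
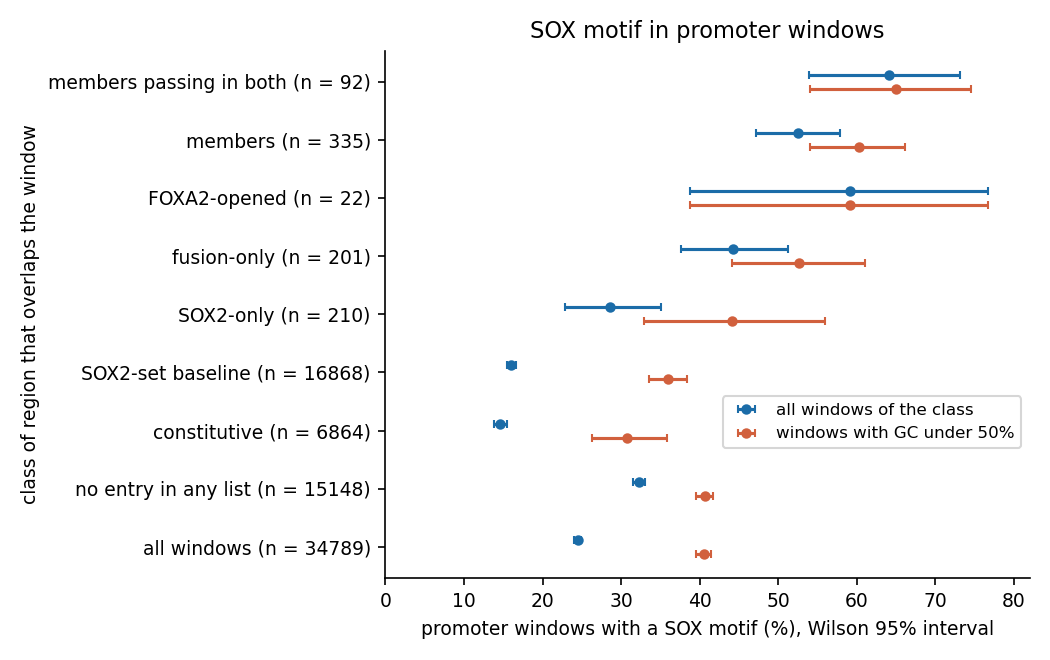
Share of promoter windows with a SOX motif (horizontal axis, percent) by the class of region that overlaps them (vertical axis, number of windows in brackets). Points are shares and bars are Wilson 95% intervals, in blue for all windows and in orange for windows with GC under 50%. Windows of members lie at 52.5% and 60.2%, FOXA2-opened windows at 59.1%, and baseline windows at 16.01% and 35.9%.

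The SOX motif was densest at the summit, the position of the highest signal in an entry. Over all members the AP-1 motif, described below, was also densest there, so this was not particular to the SOX motif. On the bases covered by promoter windows, 287 members had 6.01 SOX motifs per kb within 25 bp of the SOX2 summit (exact Poisson 95% interval 4.403 to 8.02, 46 motifs). The density was 3.72 per kb from 25 to 50 bp, 3.08 from 50 to 100 bp, 2.56 from 100 to 200 bp and 2.00 from 200 to 400 bp (1.49 to 2.63). Around the fusion summits of 289 members it was 5.65 per kb within 25 bp (4.08 to 7.64) and 2.04 from 200 to 400 bp. In the baseline it stayed between 0.52 and 0.67 per kb at every distance. The median GC content was 65.7% in baseline windows and 43.3% in those of members, and densities were not compared at equal GC. Fusion-only regions went from 3.78 (2.24 to 5.97) to 1.88 per kb, and SOX2-only regions from 2.27 (1.21 to 3.87) to 1.33. The innermost intervals of members and of fusion-only regions overlap.

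**Figure D2:**
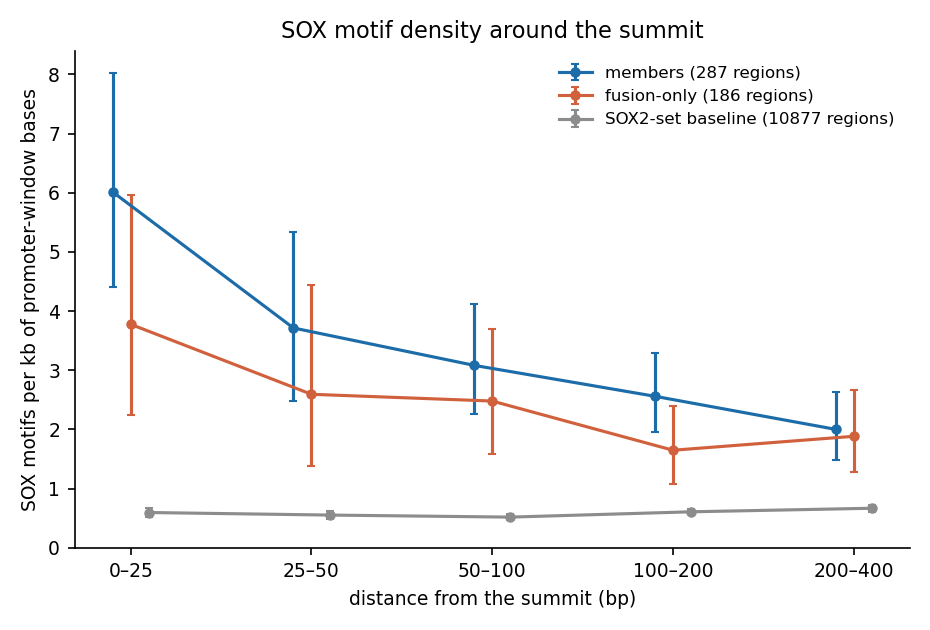
SOX motifs per kb of promoter-window bases (vertical axis) by distance from the summit in bp (horizontal axis), for members and baseline regions around the SOX2 summit and for fusion-only regions around the fusion summit. Bars are exact Poisson 95% intervals. The members fall from 6.01 to 2.00 per kb, and the baseline lies between 0.52 and 0.67. The classes differ in GC content, and densities are not adjusted for it.

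Other motifs were searched in the same windows. Their shares depend on how each motif is spelled, so motifs are not ranked against each other. The SOX motif was in 24.5% of all windows. Spelled CATTGTT or CTTTGTT, it was in 24.2% of windows of members and 8.22% of all windows. The forkhead motif, spelled TGTTTAC or TATTTAC or TGTTTGC or TATTTGC and searched on both strands, is the kind of site that FOXA2 binds. It was in 17.9% of windows of members (14.2 to 22.4), 18.4% of fusion-only, 22.7% of FOXA2-opened and 12.1% of all windows. With GC under 50% the shares were 23.4% for members and 23.1% for all windows. The AP-1 motif TGANTCA, a site of JUN and FOS factors in many adherent cells, was in 17.6% of windows of members (13.9 to 22.1), 18.4% of fusion-only, 36.4% of FOXA2-opened (8 of 22) and 7.69% of all windows. The members minus FOXA2-opened difference for AP-1 was −18.8 points (−39.8 to −1.54), not taken at equal GC. All 22 FOXA2-opened windows had GC under 50%. In that class the intervals of the shares overlapped, 15.2 to 25.1 for members and 19.7 to 57.0 for FOXA2-opened windows. With GC under 50% AP-1 was in 19.7% for members, 13.5% for all windows and 23.6% for the baseline. Around the SOX2 summits of members, AP-1 had 1.44 motifs per kb within 25 bp (0.72 to 2.57, 11 motifs). From 200 to 400 bp it had 0.24 (0.09 to 0.51, 6 motifs). The forkhead motif went the other way, from 0.13 per kb (1 motif) to 1.02 (26 motifs). In the 82 members passing in both lists, AP-1 had 1 motif within 25 bp (0.49 per kb, 0.01 to 2.73). From 25 to 50 bp it had 3 (1.49 per kb, 0.31 to 4.34), and these counts are too small to place a peak. The SOX motif had 15 within 25 bp in these members (7.35 per kb). TEAD sites (GGAATG, the factors of the YAP pathway) were in 23.3% of windows of members and 14.1% of all windows. They were in 17.9% of fusion-only and 31.8% of FOXA2-opened windows (7 of 22). RUNX sites (TGTGGT, factors of bone among other tissues) were in 20.6% of windows of members and 13.1% of all windows. They were in 19.9% of fusion-only and 22.7% of FOXA2-opened windows (5 of 22). The octamer ATGCAAAT, bound by the POU factors that pair with SOX2 in stem cells, was in 1.19% of windows of members (4 windows) and 1.77% of all. It was in 3.26% of windows of members passing in both lists (3 of 92) and 2.48% of windows without an entry. Fusion-only windows had it in 0.995% and FOXA2-opened windows in 9.09% (2 of 22). These counts are too small to tell members from other windows.

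Across the genome, the members ranged from barely called to among the strongest entries of their lists. The median −log10 p was 6.93 and 6.14 in the SOX2 inputs and 7.22 and 7.11 in the fusion inputs. An IDR of at most 0.05 was met by 39.4% of members in the SOX2 list, where 45% of all regions with an entry met it. In the fusion list 52.8% of members met it, against 43.1% of all regions with an entry. Both lists were passed by 12537 members (31.1%), the SOX2 list alone by 3342, the fusion list alone by 8753 and neither by 15704. These values come from the lists that chose the members and are a description.

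The strongest members described here are the 20 passing in both lists with the highest lower percentile, so that strength in both lists is fixed by the choice. Here a percentile is the rank of an entry among all entries of its list. Their lowest value in any input was 28.1 and their highest 60.0. The first, chr8:114803611-114804603, lies 603892 bp from TRPS1, a repressor of the GATA family, and had 60.0 and 59.3 with SOX2 and 41.1 and 41.8 with the fusion. The second, chr11:93512047-93512922, lies within SMCO4 and had 50.5 and 50.6 with SOX2 and 43.2 and 41.5 with the fusion. In both, each SOX2 input was above each fusion input, but values of different lists depend on depth, which is unknown.

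Others of the 20 lay at various distances from genes. The member chr7:8379178-8379862 is 53746 bp from NXPH1, a ligand of neurexins at synapses, and had 52.9 and 48.7 with SOX2 and 45.4 and 39.1 with the fusion. Within LINGO2, a neuronal leucine-rich repeat protein, chr9:28317567-28318357 had 56.7 and 46.8 with SOX2 and 47.2 and 42.8 with the fusion. Here the first fusion input exceeded the second SOX2 input. The member chr2:18096678-18097641, 163719 bp from the potassium channel subunit gene KCNS3, had 49.6 and 47.7 with SOX2 and 37.6 and 40.5 with the fusion. Within NECTIN3, a gene of cell-to-cell adhesion, chr3:111173129-111174211 had 48.6 and 44.3 with SOX2 and 45.2 and 40.0 with the fusion. The genes are the closest protein-coding spans and were not linked to the regions by any measurement.

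Of the 20, 7 lay within a protein-coding gene and 1 within 1 kb of a known start. That one, chr1:119507490-119508647, is 902 bp from the start of HSD3B1, an enzyme of steroid hormone synthesis. It had 40.5 and 43.2 with SOX2 and 33.7 and 33.8 with the fusion. The SOX2 and fusion summits lay within 50 bp of each other in 12 of the 20. The median gap from these members to the nearest entry of the SOX2-set wild type was 11742 bp, and the smallest was 192 bp, at chr3:161552092-161553305.

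**Figure D3:**
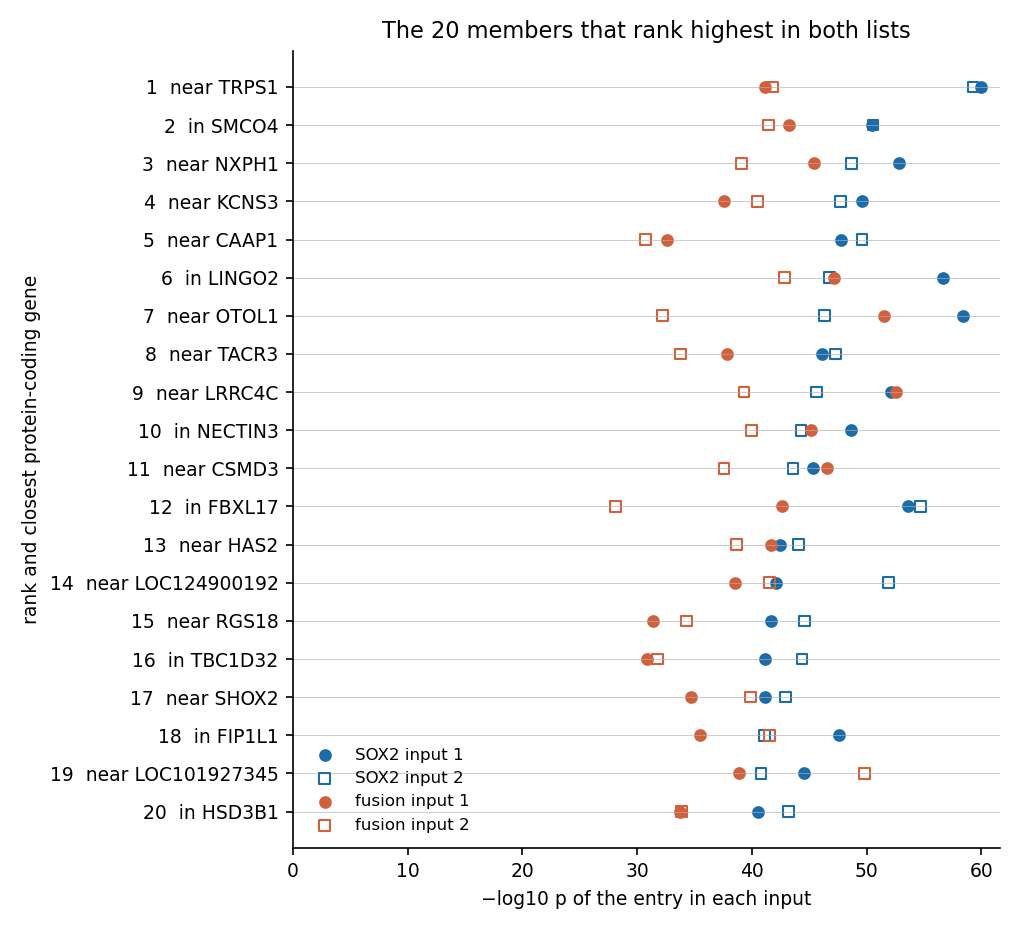
−log10 p (horizontal axis) in each of the 4 inputs for the 20 members that rank highest in both lists (vertical axis, by rank and closest protein-coding gene). Blue marks SOX2 and orange the fusion, with filled circles for input 1 and open squares for input 2. All values lie between 28.1 and 60.0.

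Strength in the SOX2 list followed strength in the fusion list loosely. Across the 40336 members the Spearman correlation between the lists was 0.58, against 0.68 across the 67527 baseline regions. Between the inputs of 1 list it was 0.71 for SOX2 and 0.72 for the fusion, and between single inputs of different constructs 0.55 to 0.56. The fusion percentile was above the SOX2 percentile in 67.7% of members (67.2 to 68.1), with a median difference of 8.35 points, against 50.8% of baseline regions. The points share the authors' processing and the local background, and the correlations are given without a test. Among members passing in both lists, 60.6% had percentiles within 10 points of each other. More than 30 points separated 186 of these members in favour of the fusion and 2 in favour of SOX2. Because the lists have different lengths (147763 and 177650 entries), no change between constructs is read from percentiles.

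**Figure D4:**
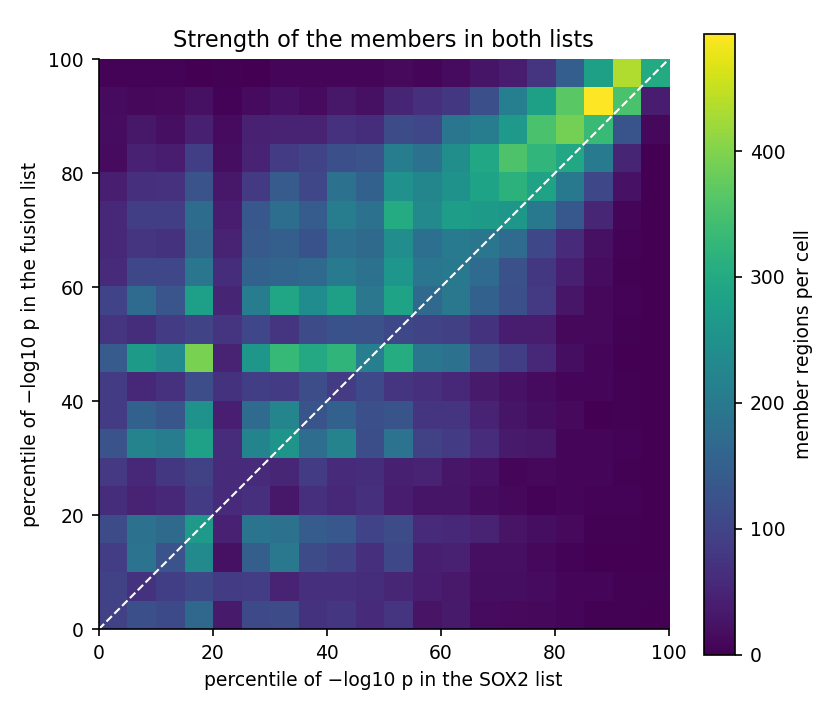
Percentile of −log10 p in the SOX2 list (horizontal axis) and in the fusion list (vertical axis), with the number of members in each cell as colour. The dashed line marks equal percentiles. Members spread widely around the line (Spearman 0.58), with 67.7% of them above it, and stripes at low percentiles are tied p-values.

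Among members passing in both lists, the largest percentile differences were found in these 2 regions, 1 in each direction. Within SLC1A3, a glutamate transporter of glia, chr5:36611464-36612376 had 6.71 and 6.27 with SOX2 and 23.7 and 25.1 with the fusion. Within ARAP2, a regulator of small GTPases, chr4:36088355-36089180 had 24.7 and 29.9 with SOX2 and 5.89 and 8.77 with the fusion. In neither region did the inputs of the constructs overlap, and both were chosen for this gap. At the other end, the member with the lowest value of the higher of its 2 percentiles, chr22:24622690-24623271 within GGT1, had 1.91 and 3.31 with SOX2 and 1.77 and 2.49 with the fusion.

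The SOX2 and fusion entries of a member were joined by shared bases, which by itself limits how far apart their summits can lie. The SOX2 and fusion summits of a member were a median of 61 bp apart and within 50 bp in 43.2% of members (42.7 to 43.7). In the baseline 50.0% and in constitutive regions 57.0% were within 50 bp. With the members cut by strength into 5 equal groups, the share was 38.3% in the weakest group and 49.5% in the strongest. The median width of a merged member was 661 bp.

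Few members lay at gene starts. Of the members, 207 of 37927 (0.546%, 0.476 to 0.625) had their SOX2 summit within 1 kb of a protein-coding start, with chromosome 8 left out, for which no starts were used. The share was 1.36% in SOX2-only (1.18 to 1.57), 0.787% in fusion-only (0.700 to 0.884) and 0.384% in FOXA2-opened regions (0.254 to 0.580). It was 15.9% in the baseline, 48.7% in constitutive regions and 3.51% over all merged regions. Regions with no SOX2-list entry were measured from the fusion summit, and those with neither, FOXA2-opened regions among them, from their midpoint. The rule leaves out every region with an entry in wild type, and SOX2-only and fusion-only regions share that exclusion. Over 100 kb from a start lay 53.8% of members, 52.8% of SOX2-only, 52.5% of FOXA2-opened and 47.5% of all merged regions. The median distance was 117103 bp for members and 89556 bp over all merged regions. Starts were known for only 15812 of the 19974 protein-coding genes. A missing start can only lower a share near a start and lengthen a distance. Within a protein-coding gene lay 41.8% of members and 41.99% of all merged regions.

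**Figure D5:**
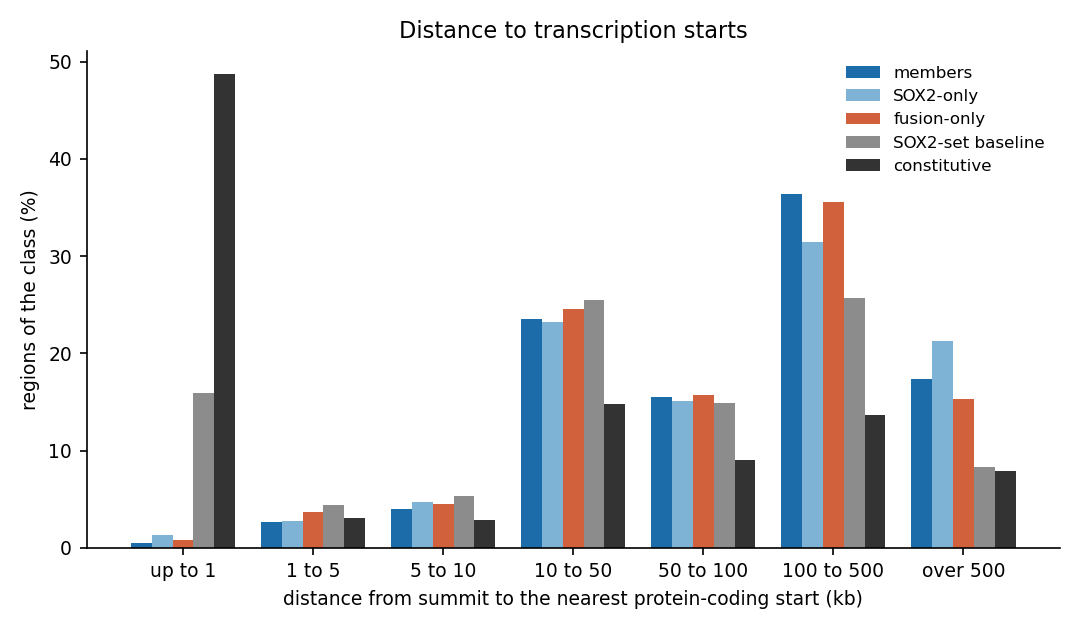
Share of regions (vertical axis, percent) by distance from the summit to the nearest protein-coding start in kb (horizontal axis), for members and 4 other classes, chromosome 8 left out. Within 1 kb are 0.546% of members and 48.7% of constitutive regions. Starts were known for 15812 of 19974 protein-coding genes.

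Most members stood apart from each other, and 28.2% had another member within 10 kb (27.7 to 28.6). A member lay within the same distance of 29.8% of FOXA2-opened, 26.3% of fusion-only, 21.1% of baseline and 25.1% of all merged regions. With runs joined at gaps of up to 10 kb, 28974 members stood alone. The longest run had 12 members, at chrX:62507073-62574758. The next runs, of 11, 11, 10 and 10 members, began at position 37629688 of chromosome 12, 29134973 of chromosome 20, 90607685 of chromosome 3 and 48753444 of chromosome 11. The places on X, 12, 20 and 3 lie beside centromeres, where repeats are frequent. How reads with several matches were handled is not given in the sources used here, and its part in these runs was not tested. The share of merged regions that were members ran from 6.17% on chromosome 22 to 13.8% on X.

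Of 19974 protein-coding genes, 33.6% (6709) had a member in their span or, where the strand was known, the 10 kb upstream. Large genes held the most. DLG2, a scaffold of the postsynaptic density, had 70 members, 27 of them passing in both lists. CTNNA3 (alpha-T-catenin) had 49, PCDH15 (a cadherin of hair cells) 44, DPP10 (an auxiliary subunit of potassium channels) 38 and PRKG1 (a cGMP-dependent kinase) 36. Across genes, the number of members and the length of the span had a Spearman correlation of 0.62.

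Relative to length, other genes led. Those named here come from the genes with the most members per 100 kb, so their high values follow from the choice. PROX1, a homeobox factor of lymphatic, lens and neural development, had 6 members in 58.4 kb of span, or 10.3 per 100 kb, against 1.28 over all gene spans. They made up 54.5% of the 11 merged regions there, against 9.30% over all protein-coding genes, and 2 of the 6 passed in both lists. The strongest, chr1:214029660-214030730, had 16.2 and 9.12 with SOX2 and 23.1 and 15.2 with the fusion, so that the constructs overlapped. CSNK1A1, the casein kinase that primes beta-catenin for decay, had 6 members among 10 regions (60%). Its strongest, chr5:149508245-149508812, had 15.8 and 15.9 with SOX2 and 11.7 and 11.99 with the fusion, with summits 3 bp apart. ALDH1A1, an enzyme of retinoic acid synthesis, had 5 members among 11 regions, none of which had an entry in the SOX2-set wild type. ETV1, an ETS factor downstream of FGF, had 8 members among 25 regions. The strongest at ETV1, chr7:13998868-13999896, had 22.3 and 19.2 with SOX2 and 25.6 and 22.2 with the fusion. MMP20, a protease of tooth enamel, had 5 members among 10 regions. Both lists were passed by 2 members each at CSNK1A1, ALDH1A1 and MMP20 and by 3 at ETV1. NBPF8 (9.28 members per 100 kb) and TRAPPC3L (8.24) were also among the leading genes.

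Gene lists are set beside the 33.6% of all protein-coding genes with a member. Of 30 neural progenitor genes 7 had one, led by the hedgehog effector GLI3 with 7 members and by CDH2 (N-cadherin) and GLI2 with 4 each. NEUROD1, a neuronal differentiation factor, had 2 members. Of 27 genes of neuronal adhesion and axon guidance, 26 had a member, led by LRP1B with 30 and by NRXN3, CSMD1 and CNTNAP2 with 29 each. These genes have a median span of 561 kb, against 32.7 kb over all genes, and per 100 kb of their pooled spans they held 1.69 members, against 1.28. Per 100 kb, WNT pathway genes held 1.80 members, TEAD and YAP pathway genes 1.78 and FGF pathway genes 1.60. Osteoblast and mesenchymal genes held 1.45, neural progenitor genes 1.27 and pluripotency genes 0.937. The median span was above 32.7 kb in the WNT, FGF and TEAD and YAP lists. It was below 32.7 kb in the neural progenitor, pluripotency and osteoblast lists. The shares of genes with a member were not compared at equal gene length. Of 21 pluripotency genes 5 had a member, with 2 members each at TFCP2L1 and LIN28B. The SOX2 gene itself had none.

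The lists for signalling and for the tissue of origin lay nearer to each other. A member was found at 17 of 36 WNT pathway genes, led by the receptors ROR1 and ROR2 with 8 each and by the corepressor TLE4 with 7. It was found at 10 of 21 TEAD and YAP pathway genes, led by the kinase STK3 with 18 and by TEAD1 with 7. Among FGF pathway genes 12 of 28 had one, with 13 at FGF13, 11 at FGF12 and 5 at FGF10, a growth factor of limb and lung buds. Of the FGF10 members 4 passed in both lists. The strongest, chr5:44304732-44305680, had 22.3 and 19.2 with SOX2 and 17.0 and 20.5 with the fusion, so that the constructs overlapped. Osteoblast and mesenchymal genes had a member in 10 of 24, with 4 at FN1 (fibronectin). No member lay at any of 24 ribosomal protein genes, whose spans (median 14.5 kb) held 54 merged regions.

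TRAPPC9, which encodes a subunit of a vesicle transport complex, had 17 members and KDR, a receptor of the growth factor VEGF, had 2. The TRAPPC9 members made up 11.3% of 150 merged regions in 731 kb, near the 9.30% over all protein-coding genes. Those at KDR were 2 of 14 merged regions, and neither passed in both lists. At TRAPPC9 the strongest, chr8:139944985-139945815, had 12.1 and 16.9 with SOX2 and 21.4 and 29.6 with the fusion, so that both fusion inputs lay above both SOX2 inputs. The same held for 5 of the 17 members, this one included, and the reverse for 5 others, such as chr8:139896609-139897144 with 10.7 and 9.36 with SOX2 and 2.75 and 4.32 with the fusion.

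Many regions missed membership by an entry in the FOXA2 set alone. Without that set, 52931 regions had entries with SOX2 and the fusion and none in the SOX2-set wild type, and 12595 of these were excluded by a FOXA2-set entry, 6843 of them by exactly 1 list. The median −log10 p of the excluded regions was 5.65 in the SOX2 list and 5.62 in the fusion list, against 5.53 and 5.89 for members. A further 13153 regions fell out by an entry in the SOX2-set wild type alone, of which 8840 had a wild-type entry with an IDR over 0.05.

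The 9 lists held 19862 to 177650 entries on the chromosomes used, and read depth is unknown. No test across samples was run: each group of the SOX2 set has 1 list, its inputs are only taken to be samples, and their values helped to choose the members. Whether inputs overlap is a description. Of 10 mesenchymal marker genes fixed to check the label, 8 had an entry within 1 kb of a start in each list of the SOX2 set, or of either end of the gene where its start was not in the table. TWIST1 and THY1 had none. By the same measure 3 or 4 of 5 epithelial and 2 of 4 blood marker genes had an entry, with none at PTPRC.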

How the data were processed

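ATAC-seq peak lists of 12 U2OS samples on hg38 were used. The submitters' processing notes name FastQC 0.10.1, Trim Galore, Bowtie2 2.4.4, SAMtools 0.1.18, MACS2 and deepTools 2.4.1; options and the IDR tool are not given in the sources used here. The deposited −log10 p and −log10 IDR values are the authors', as is the deposited fold enrichment, a ratio over background that was not used to choose members. In an IDR list the deposited −log10 p was the lower of both inputs.

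Regions were merged, and strength, position and motifs computed, with Python 3.11.15, numpy 2.4.6, pandas 2.3.3 and scipy 1.17.1, checked on simulated lists. Members and gene lists were chosen with earlier results of these data known. Named regions were the 20 with the highest lower percentile among those passing an IDR of 0.05 in both lists, the 3 largest percentile differences each way and the 3 weakest, of which a part is printed. Named genes were the 10 with most members, most per 100 kb (at least 5 members) or the highest share of regions (at least 8 regions), and up to 6 per list. Starts, spans and promoter windows came from RefSeq, GRCh38.p14. Promoter windows replaced the planned windows around summits, since no genome was used, and were chosen after seeing the data. The sequence rule was applied to members passing an IDR of 0.05 in both lists. Their SOX2 summit had to lie in the 250 bases before the start. No per-sample counts were used, so intervals are Wilson, Newcombe or exact Poisson 95% intervals for counting error. Alternatives were other IDR, overlap, threshold, distance and motif settings, and leaving out lists.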

Additional observations from a re-analysis of the deposited data

How the results depend on the processing

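The number of members, 40336, fell to 12537 with an IDR of at most 0.05 in both lists, to 23247 with a common lowest −log10 p of 5.43 and to 3641 with the 19862 strongest entries of each list. It was 35800 to 52931 under the other 4 planned settings, and 40359 to 43263 when each FOXA2-set list was left out in turn. Windows of 250 bp around summits gave the same number, 40336, but not the same regions: 39541 members were overlapped by members of that setting.

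The share of members near a start went from 0.546% within 1 kb to 3.21% within 5 kb and 7.17% within 10 kb. It was 0.410% for members passing in both lists and 1.22% within 1 kb of either end of a gene, a setting chosen after seeing the data. The share of genes with a member, 33.6%, was 29.9% for spans alone, 66.5% with 50 kb on both sides and 15.6% for members passing in both lists. The rank correlation was 0.64 with the mean of both inputs, and 0.55 to 0.56 with 1 input left out.

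All motif settings were chosen after seeing the data. The SOX share, 52.5%, was 64.1% for members passing in both lists, 60.2% with GC under 50%, 60.5% in windows holding the SOX2 summit, 24.2% when spelled CATTGTT or CTTTGTT and 29.3% when spelled CATTGT alone. Leaving out each FOXA2-set list gave 51.5% to 52.5%. The forkhead share, 17.9%, was 22.8% for members passing in both lists, 23.4% with GC under 50% and 11.6% in windows holding the summit, and the AP-1 share in the latter was 26.2%. The difference in SOX share from fusion-only windows, 8.26 points, was 19.9 points for members passing in both lists, 7.57 with GC under 50% (−2.86 to 17.9) and 5.27 with the longer spelling (−2.08 to 12.1), and the last 2 intervals include 0, as does that of the 8.26 points. From SOX2-only windows it was 35.6 points for these members, 16.1 with GC under 50% (2.77 to 28.8) and 15.1 with the longer spelling. From constitutive windows it was 49.5 points for these members, 29.4 with GC under 50% and 19.5 with the longer spelling. Beyond what the settings themselves change, the cause was not tested. Motif shares in windows around summits, with their flanks, were not run, since no genome was used here.

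No paired analysis was possible because the inputs in the SOX2-set lists carry no replicate number and no result comes from a test across samples. Unknown depth limits every comparison of strength between lists.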
